A study of Mus musculus with 4 samples.

Results

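The major histocompatibility complex (MHC) of the mouse, called H2, was followed through the topologically associating domains (TADs) of mouse hepatocytes of the line AML12, cultured either in 2D or in 3D. Its members were all protein-coding genes on chromosome 17 of the GENCODE annotation (release M21, GRCm38) whose symbol starts with H2-, which gave 34 of 21755 protein-coding genes, and 34 of the 1056 on that chromosome. They were 9 class II genes, 24 class I genes and H2-Ke6, which carries the prefix but encodes a hydroxysteroid dehydrogenase (also named Hsd17b8) and no MHC molecule. A further 11 H2- genes of other biotypes, such as pseudogenes, were not members. AML12 is an immortalized hepatocyte line from a mouse transgenic for human TGF-alpha. The 2D group (2 samples) was replated in dishes and received 1 mM hydroxyurea, which stalls cells at the G1/S boundary, for 24 h. The 3D group (2 samples) was embedded in Matrigel, a basement membrane gel, and received the same 1 mM dose for 36 h, so culture and length of arrest cannot be told apart. Contacts were measured by in situ Hi-C after digestion with MboI, which cuts at GATC, and were combined over the samples of a culture before TADs were called. There is thus 1 list per culture, 4467 TADs in 2D and 4355 in 3D, with no spread between replicates, no read counts and no p-value for any value given here. RNA was not analysed here, so nothing below concerns the level of these genes.

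MHC class I molecules present peptides from inside the cell to CD8+ T cells and are made by nearly all nucleated cells, hepatocytes included. The classical class I genes are H2-K1 and H2-D1, while the Q, T and M genes encode mostly nonclassical molecules. Class II molecules present peptides taken up from outside to CD4+ T cells and are made chiefly by professional antigen-presenting cells. H2-Aa with H2-Ab1 and H2-Eb1 with an alpha chain form the classical class II molecules, the DM genes encode the chaperone that loads peptide onto them, and H2-Oa and H2-Ob encode the DO molecule that restrains it. A TAD is a stretch of chromatin whose sequences contact each other more than their surroundings, and a border is here each start or end of a called TAD. Along the chromosome the members lie in the order K, class II, D, Q, T and M.

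The promoters of 6 members show the regulatory letters carried on each side of the borders described below. H2-K1 and H2-D1 are the classical class I genes, H2-K1 outside TADs in both cultures and H2-D1 inside a TAD in 2D only. H2-DMb1 starts before a border that both lists place inside H2-Ob, and H2-Aa and H2-Eb1 lie beyond it. The H2-Ob start is 1097 bp from that border, so its side is not resolved with bins of 40 kb. Each run is the 250 bases before the RefSeq start of the gene (GRCm38.p6), written 5′ to 3′ on the gene's strand, and lies at chr17:34000348-34000597 (minus strand) for H2-K1, chr17:35262844-35263093 (plus) for H2-D1, chr17:34152941-34153190 (plus) for H2-DMb1, chr17:34238655-34238904 (plus) for H2-Ob, chr17:34287824-34288073 (minus) for H2-Aa and chr17:34305617-34305866 (plus) for H2-Eb1. In the class I genes, capitals mark GATTCCC (part of the sequence bound by NF-kappa B) and AGTTTC with TTC 2 bases further on (letters of the interferon-stimulated response element). They mark GNAAC (the core of the X box, bound by the RFX factors) followed by TGATTGG (the Y box, bound by NF-Y) in the class II genes.
H2-K1: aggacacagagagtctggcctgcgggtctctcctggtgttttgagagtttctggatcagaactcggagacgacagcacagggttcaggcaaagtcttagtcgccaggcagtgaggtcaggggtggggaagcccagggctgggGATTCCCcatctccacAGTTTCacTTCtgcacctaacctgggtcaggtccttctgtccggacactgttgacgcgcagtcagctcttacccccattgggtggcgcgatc
H2-D1: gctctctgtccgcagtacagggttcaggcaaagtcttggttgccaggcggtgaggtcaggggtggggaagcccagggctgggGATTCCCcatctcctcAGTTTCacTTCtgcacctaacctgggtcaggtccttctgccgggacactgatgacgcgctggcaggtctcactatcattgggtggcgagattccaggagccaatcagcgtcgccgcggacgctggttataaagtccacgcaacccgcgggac
H2-DMb1: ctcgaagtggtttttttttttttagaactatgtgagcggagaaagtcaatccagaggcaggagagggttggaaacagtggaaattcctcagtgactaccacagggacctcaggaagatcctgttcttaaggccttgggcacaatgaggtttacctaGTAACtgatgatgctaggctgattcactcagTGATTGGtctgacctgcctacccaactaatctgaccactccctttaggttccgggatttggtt
H2-Ob: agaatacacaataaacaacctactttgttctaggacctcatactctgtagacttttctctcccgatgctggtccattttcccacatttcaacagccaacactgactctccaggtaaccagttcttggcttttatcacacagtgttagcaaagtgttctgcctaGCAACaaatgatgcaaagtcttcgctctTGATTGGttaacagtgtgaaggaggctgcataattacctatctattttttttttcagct
H2-Aa: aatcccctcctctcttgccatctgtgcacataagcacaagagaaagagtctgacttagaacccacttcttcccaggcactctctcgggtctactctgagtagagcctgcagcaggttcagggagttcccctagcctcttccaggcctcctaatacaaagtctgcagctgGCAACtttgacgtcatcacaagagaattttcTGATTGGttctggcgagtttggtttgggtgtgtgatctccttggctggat
H2-Eb1: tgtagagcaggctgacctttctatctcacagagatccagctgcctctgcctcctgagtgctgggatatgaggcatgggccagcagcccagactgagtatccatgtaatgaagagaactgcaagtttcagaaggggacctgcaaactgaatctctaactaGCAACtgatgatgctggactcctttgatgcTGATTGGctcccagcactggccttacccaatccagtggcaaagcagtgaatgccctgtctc

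The H2-K1 and H2-D1 promoters were 87.4% identical, with 166 identical bases of 190 aligned, and both held GATTCCC shortly before the interferon letters. Of the 34 members, 31 had a RefSeq promoter (not H2-Ab1, H2-Q1 and H2-T24), and both strands were searched. RefSeq and GENCODE starts of a gene can differ. They were 364 bp apart for H2-D1, whose printed run lies inside the GENCODE gene body, 119 bp for H2-DMb1, 1942 bp for H2-DMb2 and 3291 bp for H2-DMa, and H2-DMa and H2-DMb2 are the class II promoters without the X and Y letters together. GATTCCC was in 5 of 22 class I promoters, those of H2-K1, H2-D1, H2-Q6, H2-Q7 and H2-M3, and in 0 of 8 class II promoters, against 2.83% of all 32851 promoters. The interferon letters were in 7 of 22 class I promoters, those of H2-K1, H2-D1, H2-Q4, H2-Q6, H2-Q7, H2-Q10 and H2-M2, and in 0 of 8 class II promoters, against 0.435% of all. The X core, at most 40 bases before the Y box, was in 6 of 8 class II promoters (H2-Oa, H2-DMb1, H2-Ob, H2-Aa, H2-Eb1 and H2-Eb2) and in 0 of 22 class I promoters, against 0.916% of all. The bases between X core and Y box numbered 26 in H2-DMb1, 23 in H2-Ob, 26 in H2-Aa and 25 in H2-Eb1. The Y box letters alone were in 7 of 8 class II and 14 of 22 class I promoters, against 7.23% of all. Matches describe letters only, not bound sites. Only these fixed words were searched, so a promoter without a match may hold the same kind of box in another spelling. Promoters of related members, such as H2-K1 and H2-D1, are not independent. Class II promoters with the X and Y letters thus lay on both sides of the border inside H2-Ob, and class I promoters with the interferon letters lay inside and outside TADs.

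The first comparison asked how many MHC genes started inside a TAD in each culture. All 9 class II genes did so in both. Of the 24 class I genes, 18 did so in 2D and 21 in 3D, and the classical gene H2-K1 did so in neither. Counted over all members, 27 of 34 starts (79.4%) were inside a TAD in 2D, beside 76.7% of all protein-coding genes and 74.1% of those on chromosome 17. In 3D the count was 30 of 34 (88.2%), beside 83.5% of all and 83.3% on chromosome 17, so in each culture the share of MHC genes was near that of other genes. Both lists held 26 members inside a TAD, 76.5% beside 72.7% of all genes and 71.5% on chromosome 17. H2-D1 was the single member inside a TAD in 2D only, a class that held 3.95% of all genes and 2.65% on chromosome 17. H2-Q4, H2-Q6, H2-Q7 and H2-Q10 were inside one in 3D only, as were 10.8% of all genes and 11.8% on chromosome 17. H2-K1, H2-Ke6 and H2-M10.2 were outside TADs in both lists, as were 12.6% of all genes and 14.0% on chromosome 17.

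**Figure D1:**
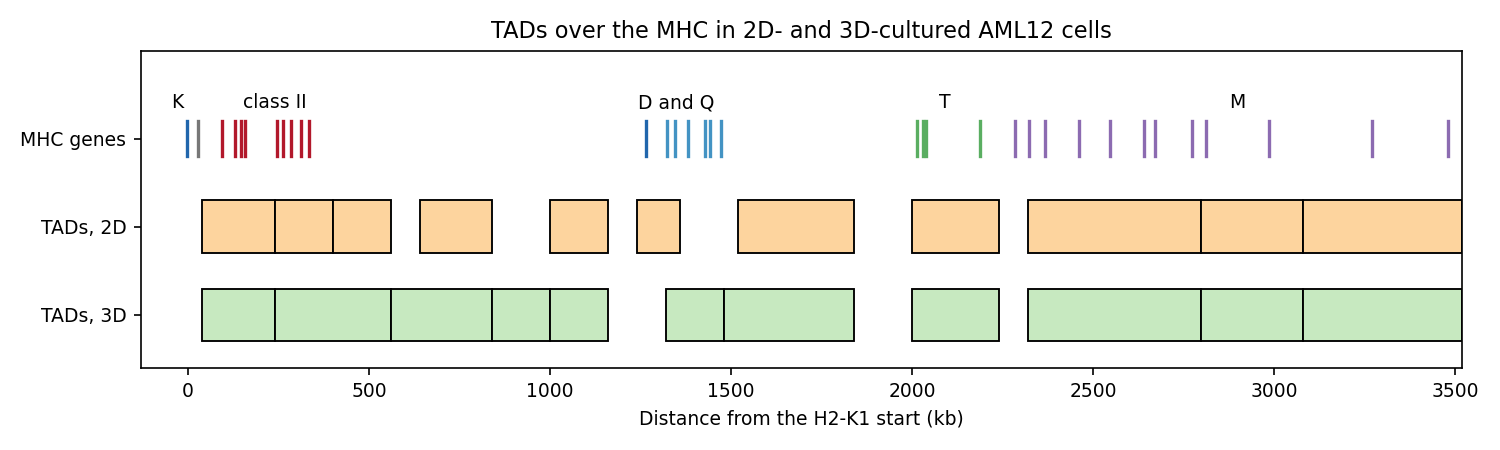
TADs (boxes) of 2D and 3D cells over the MHC, with the 34 members as ticks, against the distance from the H2-K1 start in kb. The last TAD runs on beyond the right edge. The lists are the same over the T and M genes drawn here. They differ in parts of the stretch between the class II and D genes, and over the D and Q genes.

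The span from the first to the last 40 kb bin that holds a member, chr17:33960001-37520000, measured 3560 kb and held 175 protein-coding genes. That was 49.2 genes per Mb, against 11.5 over chromosome 17 and 8.49 over all chromosomes. Stretches outside TADs made up 800 kb of it in 2D (22.5%) and 480 kb in 3D (13.5%). Over chromosome 17 these shares were 10.2% and 6.67%, and over all chromosomes 10.7% and 7.93%. The share was lower in 3D than in 2D in each of these regions, and higher in the MHC span than in the others in both cultures. The span held 17 borders in 2D and 14 in 3D. A border within 40 kb in the other list was found for 14 of the 17 (82.4%) and for all 14 of the 14, beside 81.9% and 88.1% over all chromosomes. At the same position, 12 borders were shared. The other 2 of the 3D borders, 35320000 and 35480000, are the ends of the TAD of the Q genes and stood 40 kb from the 2D borders 35360000 and 35520000, so 35320000, a TAD start, was matched to the end of a 2D TAD. The 3 borders of 2D without a partner stood at 34400000, 34640000 and 35240000, the first beyond the class II genes, the next in the stretch between class II and D, and the last before H2-D1. TADs overlapping the span numbered 11 in each culture, with a median size of 200 kb (2D) and 280 kb (3D). The medians were 200 and 240 kb over chromosome 17, and 240 and 280 kb over all chromosomes.

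H2-K1, which encodes the first of the classical class I heavy chains, lies at chr17:33996017-34000347 on the minus strand. In both cultures its start was 39.7 kb from the nearest border, in a stretch outside TADs at chr17:33880001-34040000 that had the same limits in both lists. This 160 kb stretch held 17 protein-coding genes, among them H2-Ke6 (chr17:34026033-34028060, 11.9 kb from the border) and Tapbp, which encodes tapasin, the bridge between class I molecules and the peptide transporter. The first TAD of the class II genes began where this stretch ended.

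The class II block, chr17:34080001-34360000, lay wholly inside TADs in both cultures and was divided at the same place in both. Its first TAD, chr17:34040001-34240000 (200 kb), had identical ends in 2D and 3D. It held H2-Oa (chr17:34092340-34095234), H2-DMa, H2-DMb2, H2-DMb1 and the start of H2-Ob, with Brd2, a bromodomain protein gene, and Tap1, Tap2, Psmb8 and Psmb9, which encode the peptide transporter and the inducible proteasome subunits that serve class I. The first TAD thus held the nonclassical class II genes H2-Oa, H2-DMa, H2-DMb2 and H2-DMb1. The classical H2-Ab1, H2-Aa and H2-Eb1 and the gene H2-Eb2 were in the next, as was most of the body of the nonclassical H2-Ob. H2-Ob (chr17:34238903-34254414, plus strand) was the single member whose body held a border, in both lists at 34240000, which is 1097 bp after its start. This was 1 of 34 members (2.94%), against 14.9% of all genes in 2D, 13.8% in 3D and 10.8% in both. On chromosome 17 these shares were 12.4%, 11.8% and 9.28%. The bodies of the members were 2.03 to 19.6 kb long. A longer gene has more room for a border, and these shares were not matched for gene length. With bins of 40 kb, 1097 bp is far below the resolution, so the side of the border on which the H2-Ob start falls is not resolved.

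Beyond this border the cultures differed in how far the TAD of the classical class II genes reached. In 2D it was chr17:34240001-34400000 (160 kb), with H2-Ab1, H2-Aa, H2-Eb1, H2-Eb2 and the butyrophilin-like genes Btnl2 and Btnl1 among its 7 genes. A second 2D TAD of 160 kb, chr17:34400001-34560000, followed with Btnl4 and Btnl6. In 3D 1 TAD of 320 kb, chr17:34240001-34560000, had the outer ends of both and held all 9 genes. The members kept their nearest border except H2-Eb2. H2-Ab1 (chr17:34257689-34269419) started 17.7 kb from the border at 34240000, H2-Aa (chr17:34282744-34287823) 47.8 kb and H2-Eb1 (chr17:34305867-34316674) 65.9 kb, in both cultures. H2-Eb2, the last of the block (chr17:34325665-34341412), was 74.3 kb from the 2D border at 34400000 and 85.7 kb from a border in 3D. The same 16 of 36 pairs of class II genes shared a TAD in 2D and in 3D.

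**Figure D2:**
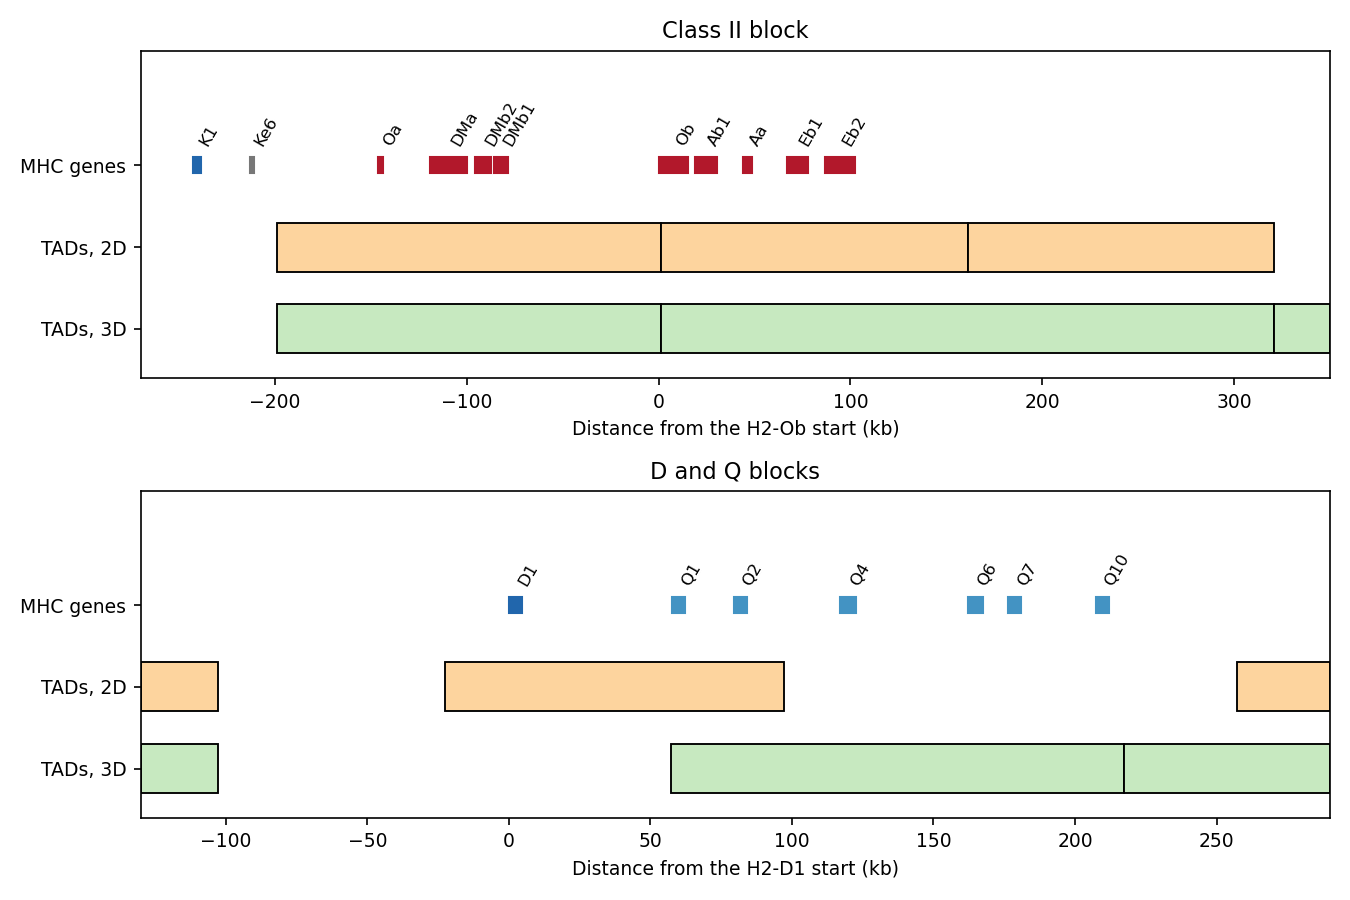
Gene bodies of the members and TADs (boxes) of 2D and 3D cells over the class II block (top, kb from the H2-Ob start) and over the D and Q blocks (bottom, kb from the H2-D1 start). The border inside H2-Ob is in both lists, while the TAD around H2-D1, H2-Q1 and H2-Q2 in 2D is replaced in 3D by one that begins at H2-Q1 and ends after H2-Q10.

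Between the class II and D genes, chr17:34360001-35240000 (880 kb, with no member), 36.4% of the length was outside TADs in 2D and 9.09% in 3D. This stretch, which holds Btnl4 and Btnl6 and then the class III genes, had 70.5 genes per Mb, more than the span as a whole. Its 7 borders in 2D included 4 that 3D shared, and its 4 borders in 3D were all shared. A TAD at chr17:34840001-35000000 with the complement genes Cfb and C2 and the heat shock genes Hspa1a and Hspa1b was called in 3D, and no 2D TAD overlapped it. The 80 kb stretch chr17:35160001-35240000 with the cytokine genes Tnf, Lta and Ltb was outside TADs in both lists.

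H2-D1 and 4 of the Q genes were the members that only 1 of the lists placed inside a TAD. H2-D1, the second classical class I gene (chr17:35262730-35267499, plus strand), lay in 2D in a TAD of 120 kb, chr17:35240001-35360000, with H2-Q1, H2-Q2 and the helicase gene Ddx39b, 22.7 kb from its nearest border. In 3D it lay in a stretch of 160 kb outside TADs, chr17:35160001-35320000, together with Ddx39b and the Tnf, Lta and Ltb genes, 57.3 kb from a border. The later Q genes were placed the other way round. In 2D, H2-Q4, H2-Q6, H2-Q7 and H2-Q10 were in a stretch of 160 kb outside TADs, chr17:35360001-35520000, with Pou5f1, Tcf19 and Cchcr1. In 3D all 6 Q genes were in a TAD of 160 kb, chr17:35320001-35480000, with no other protein-coding gene. H2-Q10 encodes a secreted class I molecule made mainly by the liver, and H2-Q7 encodes Qa-2.

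H2-Q1, the first of the Q genes (chr17:35320405-35325099), was inside a TAD in both cultures, 39.6 kb from a border in 2D and 404 bp from the border at 35320000 in 3D, again far below 1 bin. H2-Q2 was 17.8 kb from a border in 2D and 22.2 kb in 3D. The distance of H2-Q4 went from 19.6 to 59.6 kb, that of H2-Q6 from 64.8 to 55.1 kb and that of H2-Q7 from 79.2 to 40.8 kb. H2-Q10, the last (chr17:35470089-35474563), went from 49.9 to 9.91 kb. Of the 21 pairs among H2-D1 and the Q genes, 3 shared a TAD in 2D and 15 in 3D, but only the pair of H2-Q1 and H2-Q2 did so in both. The Q block, chr17:35320001-35480000, was 75.0% outside TADs in 2D and 0% in 3D.

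The bins of H2-Q6, H2-Q7 and H2-Q10 held the least unique sequence of the MHC span by 150-base words, and the study kept only read pairs that mapped with confidence. Of all 150-base words of the genome sequence, the share that occurs once was 77.0% in the bin of H2-Q4, 50.2% in that of H2-Q6 and H2-Q7 and 49.2% in that of H2-Q10. These 3 bins were among those outside TADs in 2D and inside in 3D. The last of the 3 had the lowest share among the 89 bins of the span, and 18 of 2294 bins of chromosome 17 had a lower one. The remaining bin of the 2D stretch, after H2-Q10, had 97.2%. The bin of H2-Q1 and H2-Q2 had 98.7%, that of H2-D1 had 99.9%, and the median over chromosome 17 was 99.6%. With 30-base words the shares of the 3 bins were 30.9%, 18.4% and 25.1%. Few words that occur once did not always go with a place outside TADs, since the bin of H2-T22 had 70.8% and was inside a TAD in both cultures. Over chromosome 17, 29 of 100 bins with a share under 80% were outside TADs in 2D and 32 in 3D, against 9.25% and 5.47% of the other 2194 bins. Within the MHC span, 3 of 6 such bins, those of H2-Q4, H2-Q6, H2-Q7 and H2-Q10, were outside TADs in 2D and 0 of 6 in 3D, against 20.5% and 14.5% of the other 83 bins. The 2 bins of the span that were outside TADs in 3D only, that of H2-D1 and the next, had 99.9% and 99.5%. The part of mappability in these calls was not tested.

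**Figure D3:**
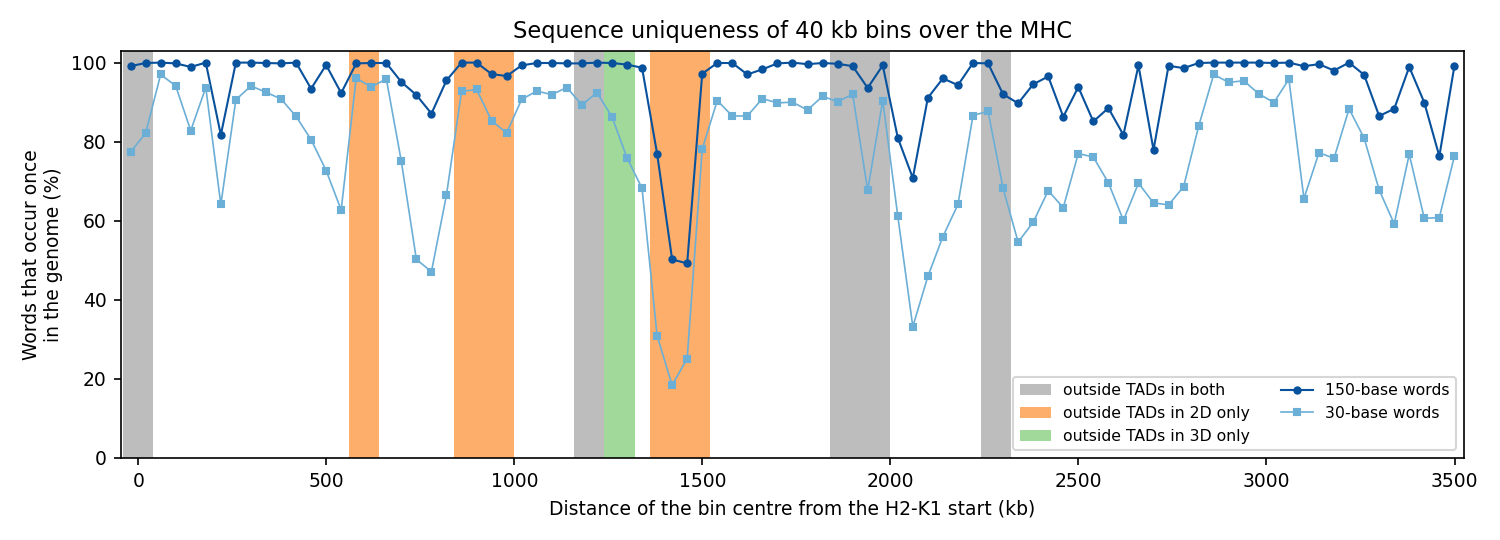
Share of 150-base and 30-base words that occur once in the genome, in percent, for each of the 89 bins of 40 kb of the MHC span against the distance from the H2-K1 start in kb, with shading where a bin is outside TADs. The lowest points are the bins of H2-Q6, H2-Q7 and H2-Q10 in the 2D-only shading, at 50.2% and 49.2% for 150-base words.

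The T genes, nonclassical class I genes, lay together in 1 TAD with identical ends in both cultures, chr17:36000001-36240000 (240 kb). From H2-T24 (chr17:36005695-36020560) to H2-T3 (chr17:36185572-36190287), the 4 starts were 20.6, 32.9, 42.7 and 49.7 kb from a border in each culture. H2-T23 encodes Qa-1, a ligand of NK cell receptors, and H2-T3 the thymus leukemia antigen. All 6 pairs of T genes shared a TAD in both lists. The T genes were bounded on both sides by stretches outside TADs that both lists held, chr17:35840001-36000000 with 11 genes and chr17:36240001-36320000 with 3.

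The second of these stretches held H2-M10.2 (chr17:36284227-36286490), the first of the M genes and the one M gene outside TADs, 33.5 kb from a border in both cultures. Of the other 11 M genes, 9 were in TADs with identical ends. A TAD of 480 kb, chr17:36320001-36800000, held H2-M10.1, H2-M10.3, H2-M10.4, H2-M11, H2-M9, H2-M1 and H2-M10.5 and no other protein-coding gene. The M10 family, with H2-M1 and H2-M9, is known for expression in sensory neurons of the vomeronasal organ. H2-M10.1 (chr17:36322858-36326155) started 6.15 kb from its border, and H2-M11, near the middle, 227 kb from it. The next TAD, chr17:36800001-37080000 (280 kb), held H2-M10.6 and H2-M5 among 15 genes, with Trim26, Trim10 and other tripartite motif genes. The border at 36800000, where these TADs meet, had H2-M10.5 27.1 kb before it and H2-M10.6 12.2 kb after it in both lists.

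H2-M3, which presents N-formylated peptides, and H2-M2, the last member (chr17:37480851-37483552), were in a TAD of another size class. It ran from 37080001 to 40840000 (3760 kb, 76 genes) in 2D and to 40920000 (3840 kb, 78 genes) in 3D, and 49 of its genes in each list were olfactory receptor (Olfr) genes. On chromosome 17 it ranked 1 of 168 TADs by size in 2D and 2 of 169 in 3D. H2-M3 was 190 kb and H2-M2 404 kb from the border at 37080000 in both cultures. The end of this TAD, 80 kb further on in 3D, lies beyond the MHC. With it, the M genes gave 23 of 66 pairs in a shared TAD, and these 23 were common to both cultures.

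The next comparison asked which MHC genes kept their TAD. A TAD whose ends both lay within 40 kb of those in the other list held 18 of 34 starts (52.9%), beside 49.7% of all genes and 49.3% on chromosome 17. All 18 were in TADs with identical ends, a class that held 35.1% of all genes and 37.7% of those on chromosome 17. They were the 5 class II genes up to H2-Ob, the 4 T genes and 9 M genes. Since neighbours share a TAD, these 18 starts stand for 4 TADs and are not independent. Over all 561 pairs of members, 48 shared a TAD in 2D and 60 in 3D, of which 46 in both. The 2 pairs in 2D only were H2-D1 with H2-Q1 and H2-D1 with H2-Q2. The 14 pairs in 3D only were all among Q genes and came from a single 3D TAD, so the higher 3D count rests on that call. Pairs of other genes at like spacing were not counted, so no pair count here has a share to stand beside it. No class I gene shared a TAD with a class II gene in either list (0 pairs in each). Their positions left little room for such a pair. H2-K1 was outside TADs in both lists, and the other class I genes lay beyond the 880 kb between the class II and D genes. The longest TAD overlapping that stretch measured 200 kb in 2D and 320 kb in 3D.

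Distances to borders were close to those of other genes. A start within 40 kb of a border was found for 14 members in 2D (41.2%), beside 41.1% of all genes and 44.6% on chromosome 17. In 3D it was found for 13 (38.2%), beside 38.7% and 42.0%. The median distance was 49.1 kb over the members in both cultures, against 53.6 kb (2D) and 58.3 kb (3D) over all genes, and 46.0 and 51.6 kb over chromosome 17. For class II starts the median was 65.9 kb in each culture and the extremes were 1.10 and 96.7 kb. Class I starts had a median of 45.6 kb in both, with ranges of 6.15 to 404 kb in 2D and 0.404 to 404 kb in 3D. By block, the median of the M genes was 109 kb and that of the T genes 37.8 kb in both cultures, while for the Q genes it was 44.8 kb (2D) and 31.5 kb (3D).

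**Figure D4:**
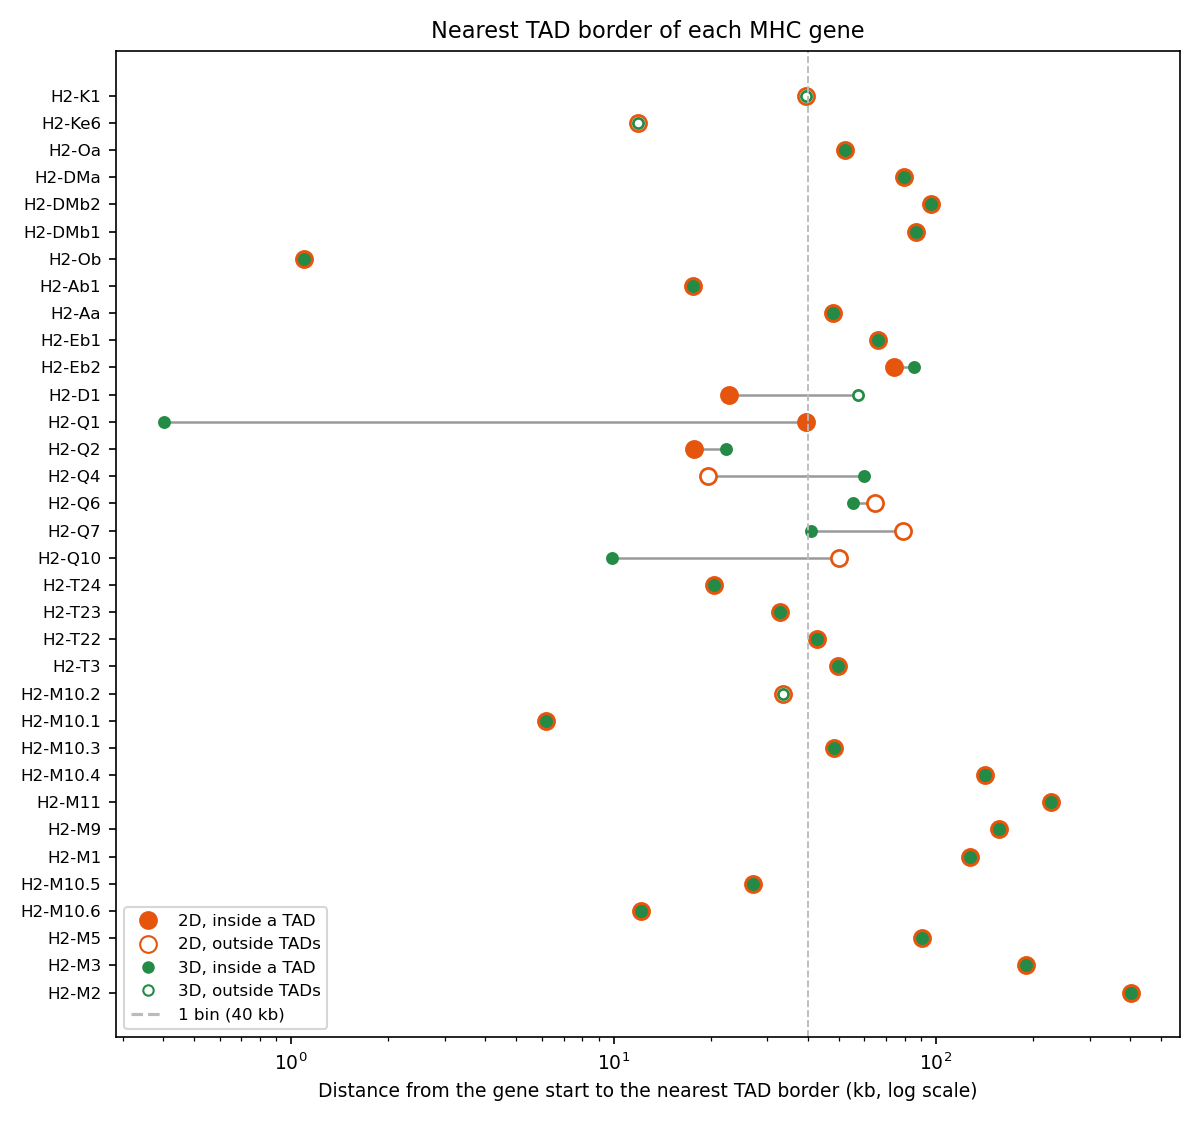
Distance in kb (log scale) from each member's start to the nearest TAD border in 2D (large symbols) and 3D (small symbols), filled where the start is inside a TAD. Symbols coincide for all members but H2-Eb2, H2-D1 and the 6 Q genes, and the dashed line is 1 bin of 40 kb.

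Genes that act with the MHC in antigen presentation were placed by the same rules. Of 19 such genes, 18 were annotated as protein-coding, and 15 of these started inside a TAD in 2D and 17 in 3D, with all 15 of the 2D genes in both, beside 76.7% (2D) and 83.5% (3D) of all genes. Tap1, Tap2, Psmb8 and Psmb9 lay in the first class II TAD, 52.4, 36.5, 42.3 and 52.2 kb from the border at 34240000 in both cultures, and Tapbp lay outside TADs with H2-K1. B2m, which encodes the beta-2 microglobulin chain that every classical class I molecule carries, was in a TAD of 160 kb with identical ends. Ciita, the master coactivator of class II genes, started in a TAD of 160 kb in 2D and 120 kb in 3D. For Nlrc5, the corresponding coactivator of class I genes, the sizes were 240 kb (2D) and 480 kb (3D). For Psmb10, a further inducible proteasome subunit, they were 120 and 480 kb. For Tapbpl, a tapasin relative, they were 160 and 280 kb. Erap1, which trims peptides, and Rfxank, a subunit of the RFX complex, were inside a TAD in 3D only, as were 10.8% of all genes. The Erap1 start was 432 bp from a border that both lists place inside the gene, so its side is not resolved with bins of 40 kb. A border lay inside the body of Ciita in 3D only and inside that of Nlrc5 in 2D only, and with Erap1 this made 2 of 18 genes crossed in each list, beside 14.9% (2D) and 13.8% (3D) of all genes. TADs with the same ends within 40 kb held 12 of the 18 genes, beside 49.7% of all genes, and 11 of these 12 genes were in TADs with identical ends, beside 35.1% of all genes, with Tap1, Tap2, Psmb8 and Psmb9 sharing 1 TAD.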

How the data were processed

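Hi-C data of 4 samples of AML12 cells were used, grouped as 2D and 3D from their labels. The deposited files are 1 list of TADs per culture, and their values are of another kind, mm10 coordinates (bp) at which each TAD begins and stops. According to the methods of the study, the authors mapped reads with Bowtie 2 (version 2.2.9), kept confidently mapped pairs, combined the replicates, used bins of 40 kb, balanced the contact matrices with ICE and called domains with Armatus. Pooling removes the spread between replicates, and binning limits every position to 40 kb. Before Armatus was run, the authors scaled the 2D and 3D contacts chromosome by chromosome so that their totals matched. The lists hold no reads, so the depth behind a single TAD or border is not known from them and no interval is given. All positions were multiples of the bin and no TADs of a list overlapped. Neither matrices nor RNA-seq data were used here.

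Gene starts were placed with GENCODE M21 (chromosomes 1 to 19 and X), and promoters were taken from RefSeq (GRCm38.p6). A border was shared when the other list had one within 40 kb. Words that occur once were counted over both strands of the reference genome of C57BL/6J. The H2 haplotype of AML12 was not determined here and may differ from this reference, on which gene positions, promoter sequences and the placement of the D and Q genes rest as well. Named genes were the classical genes, the first and last of each block, and members with a border in the body, outside TADs in both lists or inside in 1 only. Other members are given to describe their TAD. Scripts ran in Python 3.11.15 (numpy 2.4.6, pandas 2.3.3, numba 0.67.0, matplotlib 3.10.9), and 9 of 9 measures returned their known value on 3000 simulated TADs. Members and lists were chosen with earlier results of these data known. Promoters of H2-DMb1, H2-Aa and H2-Eb1, which do not start within 40 kb of a border, were added to those first planned to show both sides of H2-Ob. Protein sequences were not used here. Alternatives covered the position standing for a gene, the tolerance, the kind of border, the smallest TAD and the gene set.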

Additional observations from a re-analysis of the deposited data

How the results depend on the processing

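No paired analysis was possible because TADs were called on pooled replicates, and for the same reason no replicate could be left out. Of 40 values under the alternatives, 27 stayed the same, 13 moved and 0 reversed. Each value is a count, share or size without a sign, so none could reverse. Counts were called the same within 1.5 times, and shares within the 95% Wilson interval of the main share over bins. Median sizes had to be equal. The interval served as a label only, since neighbouring bins are not independent. Leaving out H2-Ke6, which was outside TADs in both lists, could not change the counts of starts inside TADs. The cause of a move was not tested beyond how each alternative is built. More members started inside a TAD in the 3D list than in the 2D list under each setting, from 24 against 20 (TADs of at least 200 kb) to 40 against 36 (H2- genes of every biotype). The members behind this were not always the same. At the 200 kb limit, the 2D TAD of H2-D1 (120 kb) and the 3D TAD of the Q genes (160 kb) dropped out. H2-D1 and the Q genes were then outside TADs in both lists. The excess in 3D came from H2-Ab1, H2-Aa, H2-Eb1 and H2-Eb2, whose TAD measured 160 kb in 2D and 320 kb in 3D. The 14 starts within 40 kb of a border in 2D became 7 within 20 kb, 25 within 80 kb and 4 where only positions at which TADs meet counted, and the 13 in 3D became 7, 24 and 5. Counting such meeting positions only, 3 of 4 borders of the span were shared in 2D and 3 of 7 in 3D, instead of 14 of 17 and 14 of 14. With TADs of at least 200 kb, 39.3% of the span was outside TADs in 2D and 27.0% in 3D, and the median TAD measured 280 kb (2D) and 300 kb (3D). With only TADs that hold a member start the 2D median was 240 kb. Without the TAD of H2-M3 and H2-M2, an alternative chosen after seeing the data, 25.6% (2D) and 15.4% (3D) of the span was outside TADs. The number of members in a TAD with the same ends stayed between 18 and 20. Positions are limited by the 40 kb bin, and the lists do not give the depth behind a border.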
